A study of Mus musculus with 9 samples.

Results

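The genes examined here are 10 regulators that store, silence or activate the maternal messenger RNAs of the oocyte: Zar1, Zar1l, Ybx2, Cpeb1, Cpeb4, Patl2, Btg4, Pabpc1, Pabpc1l and Dazl. They were taken by symbol, and every probe set of the array annotated to exactly 1 of these symbols was used, which gave 11 of 35557 probe sets (2 for Zar1 and 1 for each other gene). No probe set named a member together with another gene. The 10 genes were all among the 17324 genes tested, and all 11 probe sets had a log2 signal of at least 4 in 9 of 9 arrays. The arrays measured total RNA of mouse oocytes arrested at metaphase II, as ovulated eggs are until fertilization. Dicer knockout oocytes, Dgcr8 knockout oocytes and wild-type oocytes, all of strain C57BL/6, had 3 arrays each, labelled as biological replicates. All females received 7.5 IU of PMSG, a gonadotropin that makes follicles grow, and then 7.5 IU of hCG, which triggers ovulation, and the source labels give 16 h after hCG, within a window of 14 to 16 h for removal of the oviducts. Hyaluronidase at 0.3 mg/ml, an enzyme that strips cumulus cells from the egg, was used on all samples. The sources used here do not say how old the females were, how the knockouts were made, how many oocytes went into an array or how the RNA was primed for labelling. P-values therefore measure the spread between these arrays, whatever the animals behind them.

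A growing mouse oocyte makes nearly all the messenger RNA it will need and then stops transcription, so that meiosis and the first divisions run on stored transcripts. Stored messages carry short poly(A) tails and are held by RNA-binding proteins. As meiosis resumes, some tails are lengthened and the messages are translated, while others are stripped of their tails and degraded. Dicer cuts microRNA hairpins and long double-stranded RNA, and Dgcr8 serves microRNA production. The design therefore sets loss of an enzyme of both small RNA routes beside loss of a factor of the microRNA route.

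All 18 oocyte markers passed the signal floor, with a log2 of the summed signal between 15.74 and 15.89 in Dicer knockout, 15.64 and 15.76 in Dgcr8 knockout and 15.71 and 15.75 in wild-type oocytes. Of these 18, 4 were called in Dicer knockout against wild-type oocytes in limma, or 22.2% against 11.3% of all genes. Khdc3 (log2 change 1.14), Zp2 (0.40) and Nobox (0.24) were higher and Kit (-0.36) was lower. Dicer1 averaged 10.72 in Dicer knockout against 11.67 in wild-type oocytes, and Dgcr8 averaged 5.71 in Dgcr8 knockout against 8.96 in wild-type oocytes; whether these probe sets lie inside the deleted parts is not known here. Each array's median log2 signal lay between 5.48 and 5.58. A signal here is a GCRMA value on the log2 scale, made per probe set. Signals are relative between arrays. A higher signal in a gene than in another gene was not read as more transcript. Changes are differences of mean log2 signal from a limma fit across all genes, and a gene was called at a Benjamini-Hochberg adjusted p under 0.05.

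Of the 10 regulators, Pabpc1 was higher and Cpeb4 was lower in Dicer knockout than in wild-type oocytes, and the other 8 were not called. The share of all genes called in this comparison was 11.3% (4.87% higher and 6.47% lower), so 2 calls among 10 genes stand near the background. The median log2 change of the 10 genes was -0.060, against -0.027 over all genes tested. At an unadjusted limma p under 0.05 stood 4 of the 10, namely Pabpc1, Cpeb4, Patl2 and Ybx2, against 23.7% of all genes. In 4 of the 10 the Dicer knockout and wild-type values did not overlap, against 26.2% of all genes. In oocyte samples of this kind, fewer oocytes with a transcript and less of it per oocyte cannot be told apart.

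**Figure D1:**
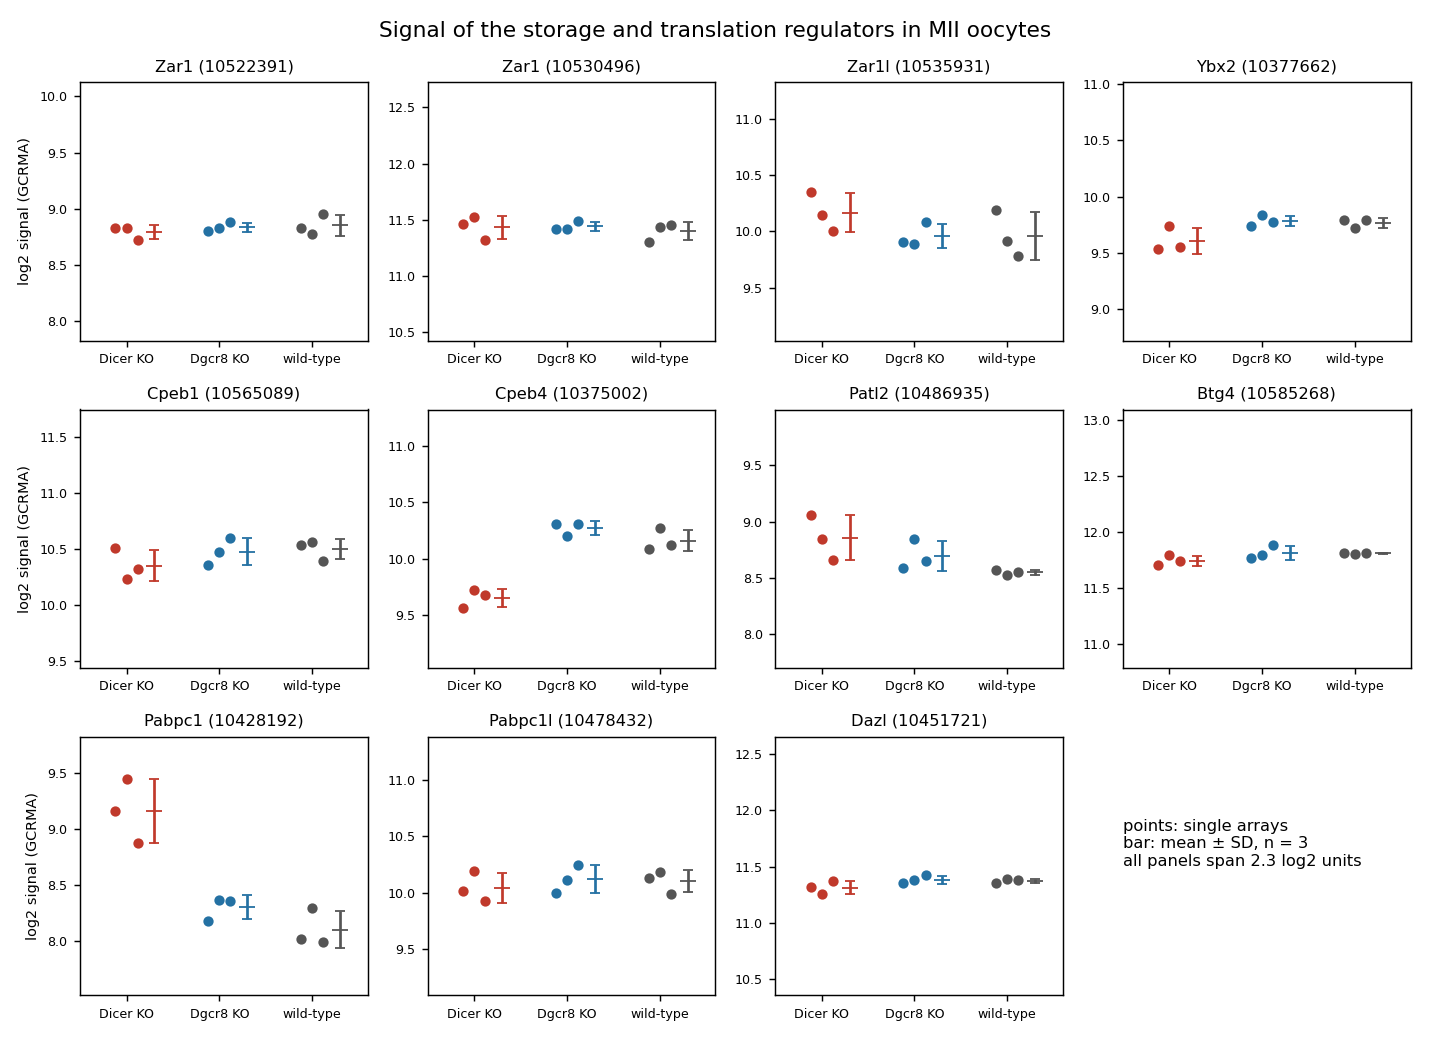
Log2 signal (vertical axis) of each probe set of the 10 regulators in single arrays (points) of Dicer knockout, Dgcr8 knockout and wild-type oocytes, with the group mean and SD (bars, n = 3). Every panel spans the same number of log2 units; the Pabpc1 points of Dicer knockout oocytes (8.87 to 9.45) lie above, and the Cpeb4 points (9.56 to 9.72) below, all points of the other genotypes.

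Pabpc1 encodes the cytoplasmic poly(A)-binding protein of most cells, which coats poly(A) tails and joins them to the translation machinery. Its gene lies on chromosome 15. Its log2 signal was 9.17, 9.45 and 8.87 in Dicer knockout oocytes, 8.18, 8.37 and 8.36 in Dgcr8 knockout oocytes and 8.02, 8.30 and 7.996 in wild-type oocytes. All 3 Dicer knockout arrays lay above all 6 others, and the Dgcr8 knockout and wild-type arrays overlapped. The log2 change in Dicer knockout against wild-type oocytes was 1.06 ± 0.14 (SE), with a 95% interval of 0.74 to 1.38 and an adjusted p of 0.00120 in limma. This is 2.08-fold, a size of change exceeded by few genes: 98.1% of the genes tested changed less. At the level of 2-fold and an adjusted p under 0.05, which 2.07% of all genes passed, Pabpc1 was the 1 regulator called. With 1 array left out in turn the log2 change ranged from 0.91 to 1.20, so that single arrays decide whether it reaches 2-fold but not whether it is called. Against Dgcr8 knockout oocytes the log2 change was 0.86 ± 0.14 (SE; limma adjusted p 0.00359).

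Pabpc1l encodes the embryonic poly(A)-binding protein, the form typical of oocytes and early embryos. The log2 signal of Pabpc1l was 10.01, 10.19 and 9.93 in Dicer knockout oocytes, 9.997, 10.12 and 10.25 in Dgcr8 knockout oocytes and 10.13, 10.18 and 9.99 in wild-type oocytes. The 3 genotypes overlapped throughout. Its log2 change in Dicer knockout against wild-type oocytes was -0.058, with a 95% interval of -0.25 to 0.14 (limma adjusted p 0.783). The intervals of Pabpc1 and Pabpc1l in this comparison do not meet; the difference between the 2 changes was not tested.

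Since Pabpc1 is abundant in somatic cells, markers of the cells around the oocyte were set beside it. Of 26 cumulus and granulosa markers on the array, 18 had a log2 signal under 6 in every array, and 1 of the 24 tested, Gata4, was called higher in Dicer knockout oocytes (mean 8.62, against 8.03 in wild-type oocytes). The log2 of the summed signal of these 26 markers lay between 10.82 and 10.99 in Dicer knockout, 10.94 and 11.06 in Dgcr8 knockout and 10.92 and 10.98 in wild-type oocytes, so the genotypes overlapped. Sums here are of unlogged signals, so genes of high signal weigh most and changes in the others can be hidden. Nr5a2, the highest of these markers, averaged 9.39 in Dicer knockout, 9.79 in Dgcr8 knockout and 9.80 in wild-type oocytes. Its log2 change of -0.41 was not called (limma adjusted p 0.0671). The median log2 change of the 24 tested was -0.031, against -0.027 over all genes. Has2 and Ptgs2, both markers of the expanded cumulus, had opposite signs and were not called: Has2 averaged 4.40 in Dicer knockout, 4.71 in Dgcr8 knockout and 4.67 in wild-type oocytes (log2 change -0.27, limma adjusted p 0.202), and Ptgs2 averaged 6.24 in Dicer knockout, 5.74 in Dgcr8 knockout and 5.52 in wild-type oocytes (0.72, limma adjusted p 0.169). Of 11 immune and blood markers, 8 were under 6 in every array, Cd68 was called higher (mean 7.40 in Dicer knockout against 6.44 in wild-type oocytes), and the log2 of the summed signal was 8.70 to 9.19 in Dicer knockout, 8.59 to 8.71 in Dgcr8 knockout and 8.48 to 8.69 in wild-type oocytes. This immune sum was higher in all 3 Dicer knockout arrays than in the wild-type arrays, and the median log2 change of the 10 tested markers was 0.070. Among those not called, Lyz2 averaged 4.58 ± 1.35 in Dicer knockout and 4.01 ± 0.15 in wild-type oocytes (SD, n = 3 each), and Ptprc averaged 4.81 in Dicer knockout and 4.85 in wild-type oocytes. Of 14 oviduct markers 10 were under 6 in every array, and of the 13 tested Tuba1a was called higher (mean 9.05 in Dicer knockout against 6.98 in wild-type oocytes) and Myh11 lower (9.30 against 9.75). The oviduct sum was 11.72 to 11.77 in Dicer knockout, 11.68 to 11.74 in Dgcr8 knockout and 11.72 to 11.74 in wild-type oocytes. Cdh1 weighs most in it, at 10.84 in Dicer knockout, 10.89 in Dgcr8 knockout and 10.92 in wild-type oocytes. Called shares were 4.17% of the cumulus and granulosa, 10% of the immune and blood and 15.4% of the oviduct markers tested. Over all genes the share was 11.3%. An array signal does not tell which cells a transcript came from. GCRMA gives no zero level, so none of these markers is listed at 0, and their part in the Pabpc1 result was not tested.

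Cpeb4 is 1 of the proteins that bind the cytoplasmic polyadenylation element of stored messages. In Xenopus oocytes it takes over from Cpeb1 during the later part of meiosis. Its gene lies on chromosome 11. The log2 signal of Cpeb4 was 9.56, 9.72 and 9.67 in Dicer knockout oocytes, 10.31, 10.20 and 10.31 in Dgcr8 knockout oocytes and 10.09, 10.27 and 10.12 in wild-type oocytes. All 3 Dicer knockout arrays lay below all 6 others. The log2 change was -0.51 ± 0.067 (SE), or 0.702-fold, with a 95% interval of -0.66 to -0.36 (limma adjusted p 0.00103). Against Dgcr8 knockout oocytes it was -0.63 ± 0.067 (SE; limma adjusted p 0.000282), and with 1 array left out in turn the change against wild-type ranged from -0.55 to -0.46.

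Cpeb1, which in the mouse oocyte holds messages silent and then drives their polyadenylation as meiosis resumes, was not called. Its log2 signal was 10.50, 10.23 and 10.32 in Dicer knockout oocytes, 10.36, 10.47 and 10.60 in Dgcr8 knockout oocytes and 10.53, 10.56 and 10.39 in wild-type oocytes. The Dicer knockout array with the highest value lay within the wild-type range. The log2 change was -0.15, with an interval of -0.34 to 0.044 (limma adjusted p 0.358). The intervals of Cpeb1 and Cpeb4 do not meet, and the difference between their changes was not tested. Among the related genes listed with their partners, Cpeb2 averaged 7.16 in Dicer knockout, 7.12 in Dgcr8 knockout and 7.15 in wild-type oocytes (adjusted p 0.990, Dicer knockout against wild-type). Cpeb3 averaged 7.22 in Dicer knockout, 7.67 in Dgcr8 knockout and 7.54 in wild-type oocytes, a log2 change of -0.33 against wild-type that was not called (adjusted p 0.0926) and of -0.45 against Dgcr8 knockout oocytes that was called (adjusted p 0.0236).

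Dazl encodes a germ cell RNA-binding protein that promotes translation of stored messages during maturation. The log2 signal of Dazl was 11.32, 11.25 and 11.37 in Dicer knockout oocytes, 11.35, 11.38 and 11.42 in Dgcr8 knockout oocytes and 11.35, 11.38 and 11.38 in wild-type oocytes. Dicer knockout replicates 1 and 2 lay below every wild-type array and replicate 3 lay among them. The log2 change was -0.061, with an interval of -0.15 to 0.027 (limma adjusted p 0.419). After quantile normalization between arrays it was -0.14 and was called (limma adjusted p 0.0331), so its call depends on the scaling.

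Zar1, Zar1l, Ybx2 and Patl2 were not called. Zar1 and Zar1l are zygote arrest proteins that bind maternal messages and gather them into storage bodies in the mouse oocyte. The Zar1 probe set that represents the gene had a log2 signal of 11.46, 11.52 and 11.32 in Dicer knockout oocytes, 11.42, 11.42 and 11.49 in Dgcr8 knockout oocytes and 11.30, 11.44 and 11.45 in wild-type oocytes. Its log2 change was 0.034 against wild-type (interval -0.098 to 0.16; limma adjusted p 0.820), and that of the other Zar1 probe set was -0.061 (interval -0.23 to 0.11; limma adjusted p 0.745). The 2 probe sets gave opposite signs, with both intervals across 0. The other probe set was read from a fit with every probe set as its own row, adjusted over 27257 probe sets. In that fit the representing probe set had a limma adjusted p of 0.847.

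Zar1l had a log2 signal of 10.35, 10.15 and 10.003 in Dicer knockout oocytes, 9.90, 9.89 and 10.08 in Dgcr8 knockout oocytes and 10.19, 9.91 and 9.78 in wild-type oocytes. Its log2 change was 0.21, with an interval of -0.054 to 0.47 (limma adjusted p 0.341). The wild-type arrays alone spread widely here, with an SD of 0.21 (n = 3), and overlapped the Dicer knockout arrays.

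Ybx2, also called MSY2, is the Y-box protein of germ cells that packages and stabilizes maternal messages. Ybx2 had a log2 signal of 9.53, 9.74 and 9.55 in Dicer knockout oocytes, 9.74, 9.83 and 9.77 in Dgcr8 knockout oocytes and 9.79, 9.72 and 9.79 in wild-type oocytes. Dicer knockout replicate 2 lay within the wild-type range, whereas replicates 1 and 3 lay below it. The log2 change was -0.16, with an interval of -0.31 to -0.0053 and a limma adjusted p of 0.194. Without Dicer knockout replicate 2, Ybx2 was called at -0.23 (limma adjusted p 0.0392), and also against Dgcr8 knockout oocytes at -0.24 (limma adjusted p 0.0272).

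Patl2 is the oocyte relative of the Pat1 decapping factors and represses translation. Its log2 signal was 9.06, 8.85 and 8.66 in Dicer knockout oocytes, 8.59, 8.84 and 8.65 in Dgcr8 knockout oocytes and 8.57, 8.53 and 8.55 in wild-type oocytes. All arrays of either knockout lay above the 3 wild-type arrays. The log2 change was 0.31, with an interval of 0.066 to 0.55, in Dicer knockout against wild-type oocytes, and it missed the threshold (limma adjusted p 0.108). Without Dicer knockout replicate 3 it was 0.41 and was called (limma adjusted p 0.0362).

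Btg4 is the adaptor that brings the CCR4-NOT deadenylase to maternal messages as meiosis proceeds. Its log2 signal was 11.71, 11.80 and 11.74 in Dicer knockout oocytes, 11.77, 11.80 and 11.89 in Dgcr8 knockout oocytes and 11.81, 11.81 and 11.82 in wild-type oocytes. The Dicer knockout arrays all lay below the wild-type arrays, which had an SD of 0.0030 (n = 3). The log2 change was small, -0.066, with an interval of -0.15 to 0.020 (limma adjusted p 0.357). After quantile normalization it was -0.16 and was called (limma adjusted p 0.0164), as it was against Dgcr8 knockout oocytes (-0.16, limma adjusted p 0.0145).

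In Dgcr8 knockout oocytes none of the 10 regulators was called against wild-type, and none had an unadjusted limma p under 0.05, where 0.0231% of all genes were called (0.0173% higher and 0.00577% lower) and 2.64% had such a p. The log2 changes ran from -0.022 for Cpeb1 to 0.20 for Pabpc1, with a median of 0.017 against -0.0029 over all genes. All 10 intervals lay within 1 of 0 on the log2 scale and 9 within 0.5; the exception was Pabpc1, with an interval of -0.12 to 0.52. Patl2, at 0.14 with an interval of -0.097 to 0.39, was the 1 regulator whose Dgcr8 knockout and wild-type arrays did not overlap, against 6.54% of all genes.

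The test that sets the knockouts against each other called the same 2 regulators, with Pabpc1 higher and Cpeb4 lower in Dicer knockout than in Dgcr8 knockout oocytes. In that comparison 13.4% of all genes were called (5.48% higher and 7.92% lower), and 2 of the 10 regulators had groups that did not overlap, against 26.1% of all genes. At an unadjusted limma p under 0.05 stood 3 of the 10, Ybx2 being the third, against 26.1% of all genes. At a 2-fold minimum, which 2.26% of all genes passed, 0 of the 10 were called in limma. The comparisons share arrays: both knockouts were set against the same 3 wild-type arrays, and the Dicer knockout arrays also enter the comparison of the knockouts.

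**Figure D2:**
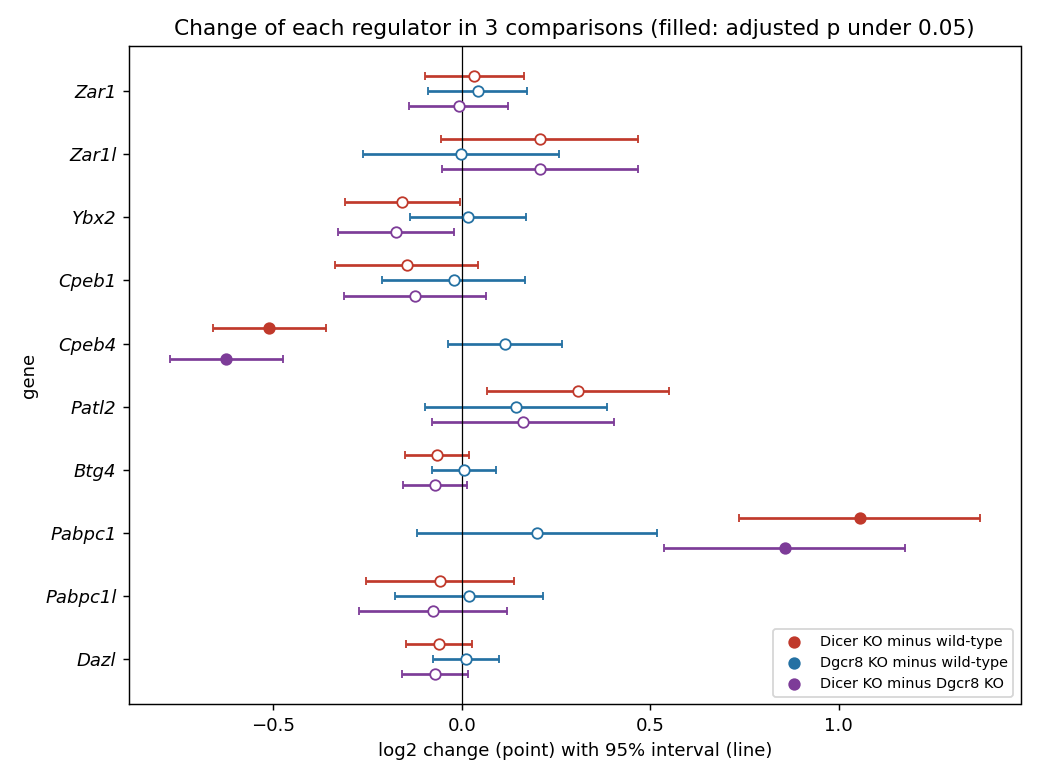
Log2 change (points) with its 95% interval (lines) of each regulator in the 3 comparisons, which share arrays; filled points passed an adjusted p of 0.05. Cpeb4 and Pabpc1 have filled points in Dicer knockout minus wild-type (-0.51 and 1.06) and in Dicer knockout minus Dgcr8 knockout (-0.63 and 0.86), and no regulator has one in Dgcr8 knockout minus wild-type.

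Across genotypes, the order of the mean signal of Pabpc1 was Dicer knockout (9.16 ± 0.29), Dgcr8 knockout (8.30 ± 0.11) and wild-type (8.11 ± 0.17; SD, n = 3 each), and the last pair did not differ beyond its spread. For Cpeb4 the order was Dgcr8 knockout (10.27 ± 0.060), wild-type (10.16 ± 0.097) and Dicer knockout (9.65 ± 0.081; SD, n = 3 each), and the first pair did not differ beyond its spread. For the other 8 genes no neighbouring pair of genotypes passed the test. The regulators varied unequally between replicates: the pooled SD within groups was lowest in Dazl (0.041) and Btg4 (0.044) and highest in Pabpc1 (0.20) and Zar1l (0.17), around a median of 0.124 over all genes tested.

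**Figure D3:**
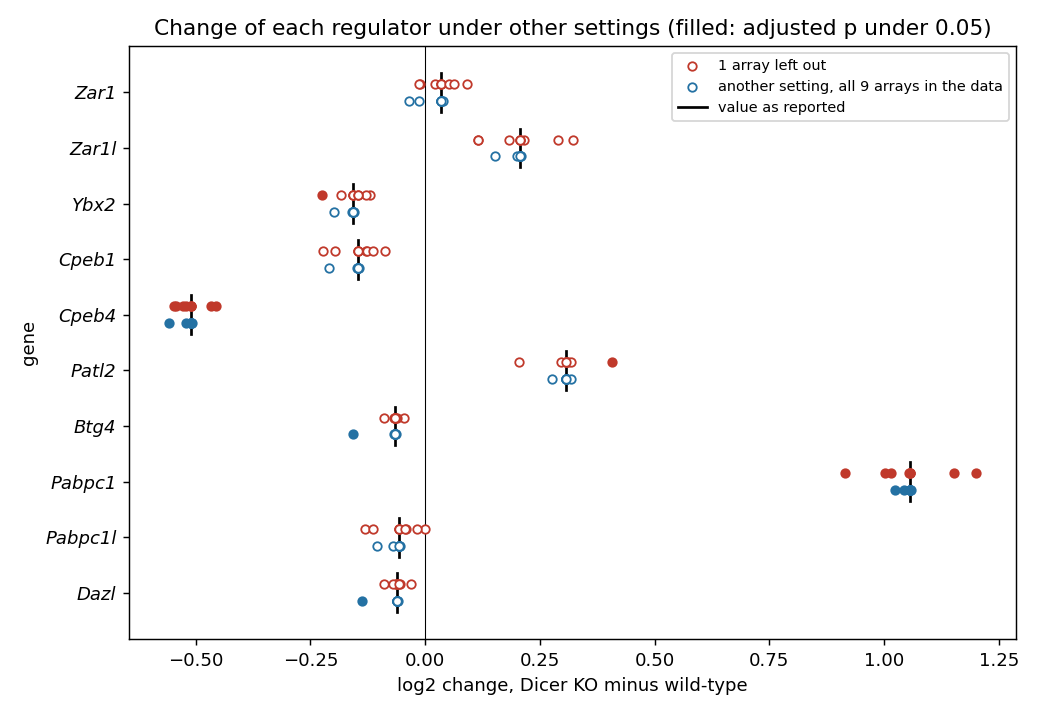
Log2 change of each regulator in Dicer knockout minus wild-type oocytes as reported (black line), with 1 array left out (red) and under other settings (blue); filled points passed an adjusted p of 0.05. Cpeb4 (-0.56 to -0.46) and Pabpc1 (0.91 to 1.20) are filled at every setting drawn, and Ybx2, Patl2, Btg4 and Dazl are each filled at 1.

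Genes next to the called regulators on the chromosome were not called. Among the nearest tested genes on either side of the 10 regulators, 20 in all, 3 were called in Dicer knockout against wild-type oocytes, near the share of all genes. These were Cnga1 beside Zar1 (log2 change -1.47 ± 0.18, SE; limma adjusted p 0.000623), Ywhab beside Pabpc1l (-0.31; limma adjusted p 0.0427) and Pde8a beside Cpeb1 (-0.28; limma adjusted p 0.0422). Beside Pabpc1, Snx31 had a log2 change of 0.034 and Ywhaz of -0.11, and beside Cpeb4, Bod1 had one of -0.0033 and 4930524B15Rik of 0.030; none of these 4 was called (limma adjusted p 0.844, 0.190, 0.987 and 0.869).

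The promoters of the regulators are of mixed kinds. Promoter sequences from 250 bases before to 50 after the start site were taken from RefSeq (build GRCm38.p6) and matched 9 of the 10 genes by symbol, with 2 entries for Ybx2 and none for Pabpc1. The ratio of observed to expected CpG in these 10 windows ran from 0.0906 in Btg4 to 0.999 in 1 of the Ybx2 windows, against a median of 0.384 over 32851 promoters. An E-box, CANNTG on either strand, the motif that basic helix-loop-helix factors of the oocyte bind, was found in 9 of the 10 windows, against 72.3% of all promoters. A NOBOX element, TAATTG on either strand, was in 1 of the 10, that of Zar1l, against 8% of all promoters. The Zar1l window holds 2 of these elements, at positions -145 and -120 from the start site. A CCAAT box, CCAAT on either strand, was in 7 of the 10, against 37.4%. The windows below are shown 5′ to 3′ on the sense strand, with E-boxes in capitals. Cpeb4 is the regulator called lower (chr11:31870690-31870989, plus strand). Zar1l is the window with NOBOX elements (chr5:150518110-150518409, minus strand), and Btg4 is the window poorest in CpG (chr9:51115751-51116050, plus strand).
Cpeb4: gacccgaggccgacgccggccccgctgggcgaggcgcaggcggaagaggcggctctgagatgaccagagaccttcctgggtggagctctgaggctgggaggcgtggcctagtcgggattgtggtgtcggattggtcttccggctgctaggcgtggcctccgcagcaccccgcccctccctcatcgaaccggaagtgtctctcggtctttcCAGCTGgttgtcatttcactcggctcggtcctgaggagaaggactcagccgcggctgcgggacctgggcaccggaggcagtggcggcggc
Zar1l: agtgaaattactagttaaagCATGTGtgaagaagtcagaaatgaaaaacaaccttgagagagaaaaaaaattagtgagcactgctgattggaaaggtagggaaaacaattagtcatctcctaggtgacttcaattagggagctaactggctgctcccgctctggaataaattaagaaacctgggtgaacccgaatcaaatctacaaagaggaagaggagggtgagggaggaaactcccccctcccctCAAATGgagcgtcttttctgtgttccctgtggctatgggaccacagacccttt
Btg4: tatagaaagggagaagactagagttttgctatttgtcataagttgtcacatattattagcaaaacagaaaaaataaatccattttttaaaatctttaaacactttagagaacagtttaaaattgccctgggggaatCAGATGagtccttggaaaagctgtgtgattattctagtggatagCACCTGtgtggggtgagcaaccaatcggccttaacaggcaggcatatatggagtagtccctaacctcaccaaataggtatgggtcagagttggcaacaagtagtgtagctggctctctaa
The Cpeb4 window holds 1 E-box, 40 bases before the start site, while the Zar1l and Btg4 windows hold 2 each. A match is a description of the letters, and no binding was measured.

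Genes were ranked by how closely their signal followed that of a called regulator over the 9 arrays, with predicted and clone-named genes skipped. The closest were, for Cpeb4, Sertad2 (Pearson r 0.995), Lrriq3 (0.989) and Zfp558 (0.989). For Pabpc1 they were Plekhf2 (0.994), Klf10 (0.978) and Cspg4b (0.976). These r describe 9 arrays that share 3 genotypes. All 6 of these genes were themselves called in Dicer knockout against wild-type oocytes, with log2 changes of -0.52 (Sertad2), -0.73 (Lrriq3), -0.46 (Zfp558), 0.82 (Plekhf2), 0.43 (Klf10) and 0.66 (Cspg4b) and limma adjusted p between 0.000623 and 0.0167. The 6 were picked for a high r with a called regulator over the same 9 arrays. Their calls, and the correlations of deviations that follow, result in part from that choice. Deviations from the group means correlated at 0.944 between Cpeb4 and Sertad2 and at 0.958 between Pabpc1 and Plekhf2. They correlated less with Cpeb4 for Lrriq3 (0.783) and Zfp558 (0.862), and with Pabpc1 for Klf10 (0.843) and Cspg4b (0.884).

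In Dicer knockout against wild-type oocytes, 31 of 37 tested partners of the storage particles and other repressors were not called, while 2 passed as higher and 4 as lower, or 16.2% against 11.3% of all genes, a share near the background, with a median log2 change of -0.073. Ddx6, the RNA helicase of P-bodies, averaged 9.88 ± 0.25 in Dicer knockout, 9.30 ± 0.22 in Dgcr8 knockout and 9.12 ± 0.22 in wild-type oocytes (SD, n = 3 each), a log2 change of 0.76 ± 0.16 (SE; limma adjusted p 0.0112). Fmr1, the fragile X RNA-binding protein, was called higher by 0.55 (limma adjusted p 0.0395). Nanos2, a translational repressor best known in male germ cells, averaged 9.51 in Dicer knockout, 10.15 in Dgcr8 knockout and 10.21 in wild-type oocytes, and its log2 change of -0.70 ± 0.077 (SE) had the lowest adjusted p of the list (0.000330, limma). The other calls were the Musashi protein Msi2 (-0.67), the Pumilio protein Pum2 (-0.33) and the m6A reader Ythdf3 (-0.21). Nanos2 was called without any 1 array. Ddx6 missed the threshold without wild-type replicate 3 (0.0521), Msi2 without Dicer knockout replicate 1 or wild-type replicate 1 (up to 0.0784), Pum2 without 3 arrays (up to 0.0820), Ythdf3 without 4 (up to 0.0884) and Fmr1 without 7 (up to 0.138). Without wild-type replicate 3 the list had 2 calls. After quantile normalization 13 members were called, 2 higher and 11 lower, and over all genes 2467 of 17332, 821 higher and 1646 lower. Eif4e1b, the oocyte form of the cap-binding protein, averaged 12.55 in Dicer knockout, 12.60 in Dgcr8 knockout and 12.58 in wild-type oocytes, and Lsm14b, a storage particle protein, averaged 11.25 in Dicer knockout, 11.30 in Dgcr8 knockout and 11.28 in wild-type oocytes; neither was called.

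Genes that lengthen, bind or remove poly(A) tails had 1 member called higher and 8 lower of 47 tested in Dicer knockout oocytes, with 11.3% of all genes called and, in the list, a median log2 change of -0.091. Tob1, an adaptor of the deadenylases related to Btg4, was the member called higher, at 8.95 ± 0.17 in Dicer knockout, 8.38 ± 0.13 in Dgcr8 knockout and 8.37 ± 0.047 in wild-type oocytes (SD, n = 3 each), a log2 change of 0.59 ± 0.10 (SE; limma adjusted p 0.00515). Btg2, another relative of Btg4, was called lower (-0.70; limma adjusted p 0.0297). Of the CCR4-NOT deadenylase, the catalytic subunit gene Cnot6 was called lower (log2 change -0.66 ± 0.12, SE; limma adjusted p 0.00579) and the scaffold gene Cnot1 had a log2 change of -0.26. Cnot7, a catalytic subunit that Btg4 binds, averaged 11.60 in Dicer knockout, 11.62 in Dgcr8 knockout and 11.62 in wild-type oocytes and was not called (limma adjusted p 0.830). Cnot8, of the same list, had a log2 change of -0.20 against wild-type and was not called (limma adjusted p 0.0742). The remaining named calls were the poly(A) polymerase Papolg (-0.28), the nuclear poly(A)-binding protein Pabpn1 (-0.23), the poly(A)-binding protein inhibitor Paip2b (-0.22) and the deadenylase subunit Pan3 (-0.22). The ninth call was the CCR4-NOT catalytic subunit gene Cnot6l (-0.15; limma adjusted p 0.0359), named here after its values were seen, which missed the threshold without 7 arrays (up to 0.142). Papolg, Tob1, Paip2b, Cnot6 and Pabpn1 were called without any 1 array, while Cnot1 missed the threshold without wild-type replicate 2 or 3 (up to 0.0772), and Btg2 and Pan3 without 5 arrays each (up to 0.105 and 0.112). The list had 5 calls without wild-type replicate 2 and 5 without wild-type replicate 3. After quantile normalization 18 members were called, 1 higher and 17 lower, and over all genes 2467 of 17332, 821 higher and 1646 lower.

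Reported maternal targets of translation driven by the CPEB proteins or Dazl had 3 members called higher and 3 lower of 18 tested, or 33.3% against 11.3% of all genes, with a median log2 change of 0.0090. The higher ones were Tex19.1, a germ cell protein that restrains transposons (0.36 ± 0.074, SE; limma adjusted p 0.0111), the synaptonemal complex gene Sycp1 (0.75; limma adjusted p 0.0208) and the germ cell helicase Ddx4 (0.62; limma adjusted p 0.0250). The lower ones were the decapping enzyme Dcp2 (-0.31; limma adjusted p 0.0133), the mitotic kinase Aurka (-0.24; limma adjusted p 0.0209) and Fbxo43 (-0.20; limma adjusted p 0.0397), the inhibitor that holds the egg at metaphase II. Mos, whose polyadenylation starts the kinase cascade of that arrest, averaged 10.53 in Dicer knockout, 10.58 in Dgcr8 knockout and 10.65 in wild-type oocytes and was not called (limma adjusted p 0.786). Tex19.1 and Dcp2 were called without any 1 array. Aurka and Ddx4 missed the threshold without 3 arrays each (up to 0.0889 and 0.1003), Sycp1 without 4 (up to 0.0825) and Fbxo43 without 6 (up to 0.134). Without wild-type replicate 1, and again without wild-type replicate 3, the list had 2 calls. The 33.3% and the 11.3% are at the floor of log2 4. All genes include many of lower signal than these targets, whose lowest mean was 6.45 (Sycp1 in Dgcr8 knockout oocytes). At a floor of log2 6 in at least 3 arrays, 2196 of 10181 genes were called against wild-type in Dicer knockout oocytes. Of the 3 lists together, 24 of 92 members were called there. In Dgcr8 knockout oocytes no gene of the 3 lists was called against wild-type in limma.

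**Figure D4:**
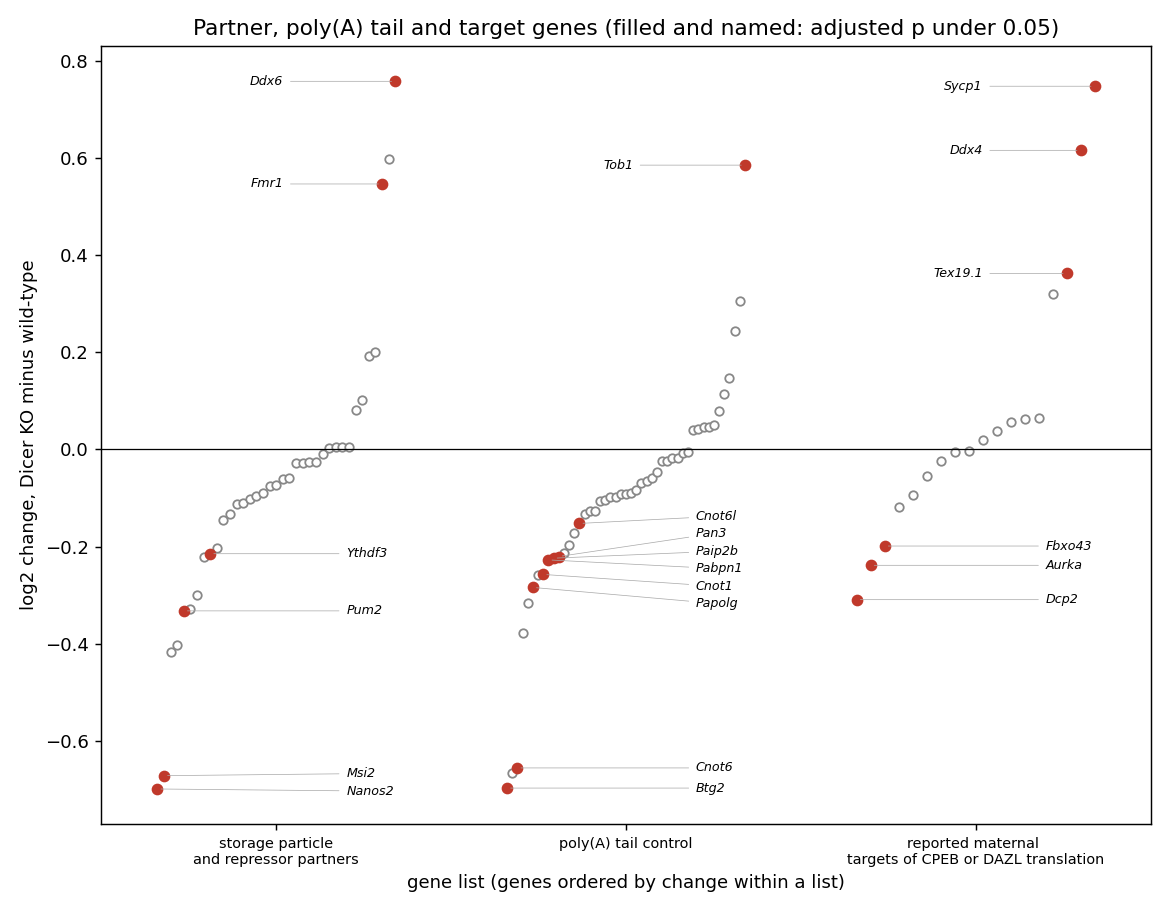
Log2 change in Dicer knockout minus wild-type oocytes (vertical axis) of the tested genes of 3 lists, ordered by change within each list; filled and named genes passed an adjusted p of 0.05. Filled points lie on both sides of 0 among partners and targets, whereas Tob1 (0.59) is the 1 filled point above 0 in the list of poly(A) tail genes. Of all genes tested, 4.87% were called higher and 6.47% lower.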

How the data were processed

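RNA of 9 samples was measured on single-channel arrays, 1 array per sample. The authors deposited log2 signals per probe set, made with GCRMA per the submitters' processing notes; no version or settings are recorded there, and depth has no meaning for arrays, whose number (3 per group) limits the precision. No further normalization was applied. Probe sets were named from the platform annotation: 21789 with 1 gene, 1621 with several (left out) and 12147 unnamed here. Each gene was represented by its probe set of highest mean, and genes with a log2 signal of at least 4 in at least 3 arrays were tested. The test was limma 3.58.1 in R 4.3.3 (trend and robust eBayes, statmod 1.5.0), all 9 arrays in 1 fit, two-sided, with Benjamini-Hochberg adjustment over 17324 genes. The fit was tested on simulated data. Of simulated log2 changes of 0.5, it recovered 56.7% in Dicer knockout minus wild-type and 49.3% in Dgcr8 knockout minus wild-type. In Dicer knockout minus Dgcr8 knockout it recovered 41.8%. False calls made up 2.91%, 5.39% and 3.82% of calls in these comparisons, in that order.

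The members and gene lists were chosen with earlier results of these data known, so their counts are descriptions. Text names every member and up to 8 called genes of each list. For called members it names the 3 genes of highest Pearson r, predicted and clone-named genes skipped. Cpeb2, Cpeb3, Eif4e1b, Lsm14b, Cnot6l, Cnot7, Cnot8, Mos, the markers and the neighbouring genes were named outside this rule, after their values were seen. Replicate numbers were not taken to pair arrays, since deviations of same-numbered arrays correlated between -0.235 and 0.112. Alternatives changed floor, scaling, probe set, fit and threshold.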

Additional observations from a re-analysis of the deposited data

How the results depend on the processing

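Over 19 other settings, Cpeb4 and Pabpc1 kept their direction and their call in Dicer knockout oocytes against wild-type and against Dgcr8 knockout oocytes, with adjusted p up to 0.00735 and 0.00959 against wild-type and up to 0.00231 and 0.0179 against Dgcr8 knockout. The count of regulators called moved at quantile normalization, to 4 in both comparisons (Btg4 and Dazl joining), and at a 2-fold minimum, to 1 against wild-type and 0 against Dgcr8 knockout; with each array left out it was 2 to 3 in both. In Dgcr8 knockout against wild-type it was 0 at every setting. No called change reversed; 7 of 570 recomputed changes gained a call, and 23 changed sign without a call. Over the 3 lists, 21 members were called against wild-type (6 higher, 15 lower) and 23 against Dgcr8 knockout (6 higher, 17 lower). These became 38 (6 higher, 32 lower) and 38 (5 higher, 33 lower) after quantile normalization, 13 (4 higher, 9 lower) and 15 (2 higher, 13 lower) with arrays centred on their median, and 0 and 0 at a 2-fold minimum, and 14 against Dgcr8 knockout when the 6 arrays of that comparison were fitted alone. With each array left out they ranged from 9 to 20 and from 15 to 23; against wild-type there were 13 without wild-type replicate 1, 13 without wild-type replicate 2 and 9 without wild-type replicate 3, and against Dgcr8 knockout 15 without Dgcr8 knockout replicate 3. With a replicate block the regulators called stayed at 2 in both comparisons, the list calls were 18 and 19, and no other regulator's call changed. Calls over all genes moved as well. Against wild-type they were 1964 as reported, 2467 after quantile normalization, 1584 with median-centred arrays and 358 at a 2-fold minimum. Without wild-type replicates 1, 2 and 3 they were 1383, 1332 and 1238. Against Dgcr8 knockout they were 2321 as reported, 2879 after quantile normalization, 1945 with median-centred arrays and 391 at a 2-fold minimum. With the 6 arrays alone they were 1579. The cause of these moves was not tested. The arrays limit what could be seen: the largest bound of an uncalled regulator's interval was 0.55 against wild-type in Dicer knockout oocytes and 0.52 in Dgcr8 knockout oocytes.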
